A study of Mus musculus with 6 samples.

Results

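Genes whose products act on the coactivator YAP beside the core Hippo kinases were followed in mouse liver with and without Cre-driven loss of Mst2. They were the angiomotins Amot, Amotl1 and Amotl2, the FERM domain protein gene Frmd6, the phosphatase gene Ptpn14 and the kinase genes Map4k4 and Taok1. They were taken by symbol, and all 7 were found among the 22068 symbols of the files. The last pair encode kinases rather than YAP-binding scaffolds, so the set is described by role. Polyadenylated RNA of livers from C57BL/6 mice aged 6 weeks had been sequenced, with 3 control and 3 Mst1/2 liver-dKO (dKO) libraries. Control mice were Mst1-/-; Mst2fl/fl; alb-Cre-/-, and dKO mice were Mst1-/-; Mst2fl/fl; alb-Cre+/+. Mst1 was thus absent by label from both groups, no group had wild-type Mst1, and what set the groups apart was an albumin-Cre transgene. This driver is active in hepatocytes and in the fetal cells that give rise to them. Nothing in the labels ties the replicates to separate animals, and p-values therefore reflect only how far these libraries vary, which may be technical variation.

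In the Hippo pathway the kinases MST1 and MST2 activate LATS1 and LATS2, which phosphorylate YAP and its relative TAZ and so keep them out of the nucleus, where they would act through TEAD transcription factors. Angiomotins are scaffolds of cell junctions and actin that bind YAP through short proline-rich motifs, can hold it in the cytoplasm and also promote its phosphorylation by LATS. Amotl2 is itself known as a transcriptional target of YAP, which places it in a feedback loop. The tyrosine phosphatase PTPN14 binds YAP too, FRMD6 is related to the fly Hippo regulator Expanded, and MAP4K4 and TAOK1 can feed into LATS activation beside or above the MST kinases.

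Levels are given as RPKM, reads per kilobase of gene scaled to the reads mapped in the library. The deposited values were read as this unit, which was not tested. Comparisons between genes, and their sums and shares, rest on that reading and on an annotation that is not given. RPKM summed to 324034 to 368246 per library over all genes. Depth was estimated from the steps between low values, at 16.95 to 24.8 M reads per library. At the longest coding transcript of each gene in GENCODE M21 this puts the lowest value of the set, Ptpn14 in control, at about 67 reads and the highest, Amotl2 in dKO, at about 3843 reads. A group's value is its mean ± SD over n = 3 libraries. A log2 change is the dKO mean less the control mean of log2(RPKM + 1), a scale on which changes of low genes come out too small. The 11062 genes averaging 1 RPKM or more were tested with limma, and those whose Benjamini-Hochberg adjusted p over all of them fell under 0.05 are referred to as called. Stk3, the gene of MST2, averaged 5.54 ± 0.414 RPKM in control livers and 4.90 ± 0.571 RPKM in dKO livers (limma adjusted p = 0.424), and passed the threshold only under quantile normalization (limma adjusted p = 0.0478, range 0.0478 to 0.748 over 16 alternatives). Stk4, the gene of MST1, stood at 4.95 ± 0.478 and 5.51 ± 0.506 RPKM (limma adjusted p = 0.487). Since the loss of some exons cannot be read from a single gene value, the genotypes were not tested by these levels.

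Amotl2, Amot and Map4k4 rose in dKO liver, by 5.26-fold, 3.12-fold and 2.38-fold. The other tested genes, Frmd6, Amotl1 and Taok1, did not pass the test, and Ptpn14 lay below the level needed for it. Thus 3 of 6 tested genes of the set were called higher and 0 lower, against 17.8% of all tested genes called higher and 2.17% called lower. At an unadjusted limma p under 0.05 the counts were 4 higher and 0 lower. The share of all tested genes at that p was not computed, so these 2 counts are given as a description. For the 6 of the set that were tested, log2 changes had a median of 0.82, beside 0.23 over all tested genes. In 5 of the 6 tested genes all dKO libraries lay above all control libraries, which held for 38.3% of all tested genes.

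**Figure D1:**
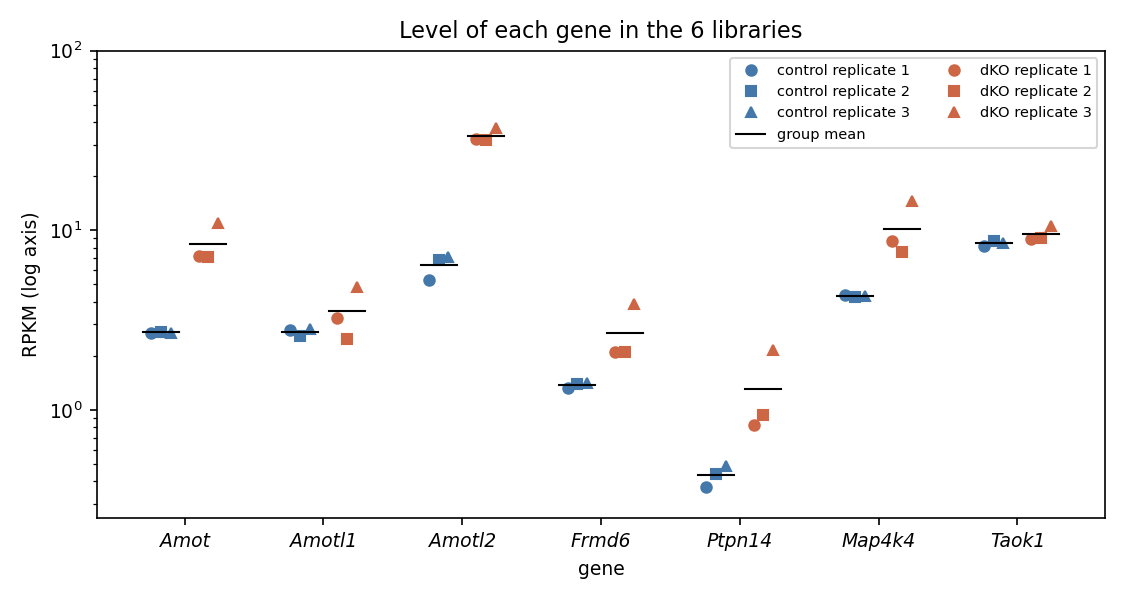
RPKM on a log axis of the 7 genes in each library, with control in blue, dKO in red, a marker shape per replicate number and a bar at each group mean. The groups are far apart for Amotl2 (at most 7.14 RPKM in control, at least 31.9 RPKM in dKO) and overlap for Amotl1, and the triangle of dKO replicate 3 is the highest dKO point of every gene.

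Amotl2 encodes the angiomotin-like protein that was the most abundant angiomotin transcript in all libraries. Replicates 1, 2 and 3 of the control held 5.28, 6.81 and 7.14 RPKM, against 32.4, 31.9 and 36.9 RPKM in replicates 1, 2 and 3 of the dKO. The groups were widely separated, with the lowest dKO library 4.46-fold above the highest control library, and dKO replicate 3 exceeded the mean of the other dKO libraries only 1.15-fold. The log2 change was 2.23 ± 0.14 (SE; limma adjusted p = 0.000364), the 67th largest increase among the 11062 tested genes. The gene went from a level above 53.3% of tested genes in control to one above 87.6% of them in dKO.

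Amot, the founding member of the family, lies on the X chromosome. Its control libraries held 2.69, 2.72 and 2.68 RPKM, against 7.15, 7.10 and 11 RPKM in its dKO libraries. Control libraries were nearly identical and all lay below the dKO libraries, among which replicate 3 was 1.54-fold above the mean of the other two. The log2 change was 1.32 ± 0.17 (SE; limma adjusted p = 0.00295). Xist, the X-inactivation RNA, was present in all libraries, at 55.7, 65.1 and 57.2 RPKM in control and 79.7, 80.3 and 93.5 RPKM in dKO. The groups thus did not overlap for Xist, a difference that was not tested here. Y-linked Ddx3y was listed at 0 in all libraries, and Uty, Kdm5d and Eif2s3y reached at most 0.00897, 0.00727 and 0.027 RPKM.

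Amotl1, the third angiomotin, had 2.77, 2.57 and 2.80 RPKM in its control libraries, and 3.26, 2.47 and 4.86 RPKM were found in dKO. The groups overlapped, since dKO replicate 2 was the lowest of the 6 libraries and dKO replicate 3 the highest. The log2 change was 0.25 (95% confidence interval -0.19 to 0.70; limma adjusted p = 0.36), and it turned to -0.08 under quantile normalization. In control Amot and Amotl1 stood at 2.70 ± 0.024 and 2.71 ± 0.126 RPKM, levels that did not differ beyond their spread, while in dKO their ranges no longer met.

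The summed angiomotin level was 10.7, 12.1 and 12.6 RPKM in control and 42.8, 41.5 and 52.8 RPKM in dKO, so the dKO mean was 3.86-fold that of control. Amotl2 made up 54.0% ± 4.2 of this sum in control and 74.2% ± 3.70 in dKO. The share of Amotl1 went from 23.1% ± 2.41 to 7.60% ± 1.62 and that of Amot from 22.9% ± 1.95 to 18.2% ± 2.26. The groups overlapped in none of these 4 measures, and each gave an exact two-sided permutation p of 0.10, the smallest that 3 against 3 libraries can give. The 4 are built from the same 3 genes and the shares add up to a whole, so they are not separate results. How often sums or shares of other genes reach this p was not computed. Of single tested genes, 38.3% had all dKO libraries above all control libraries. The shares compare genes within a library, so scaling a library by 1 factor does not move them.

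**Figure D2:**
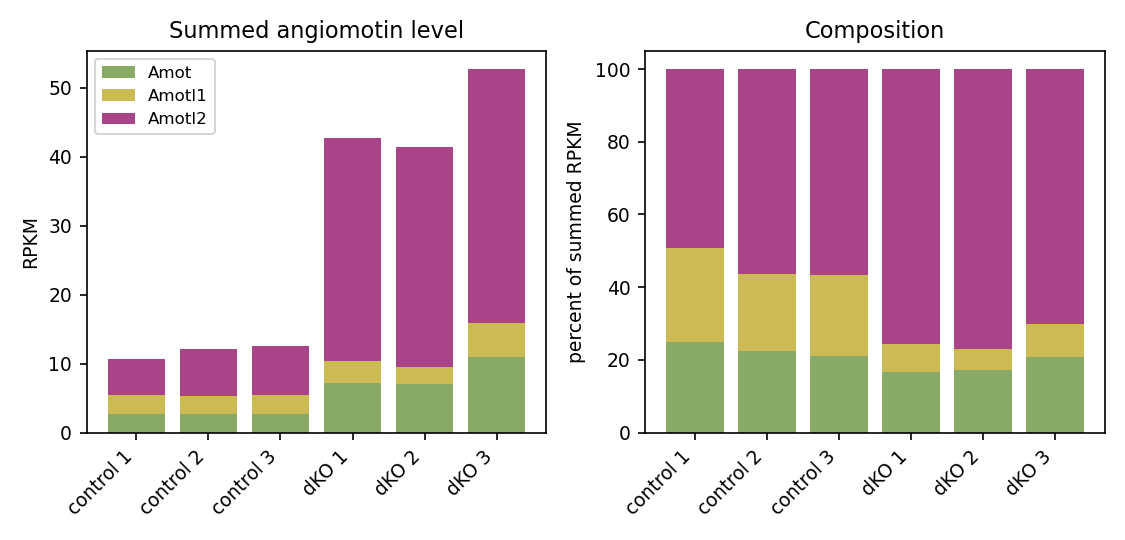
Stacked bars of Amot, Amotl1 and Amotl2 in each library, as RPKM on the left and as percent of their sum on the right. The sum is 10.7 to 12.6 RPKM in control and 41.5 to 52.8 RPKM in dKO, and the Amotl2 share is 49.2% to 56.6% in control and 70.0% to 76.9% in dKO.

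The angiomotin level was also set against that of the coactivators they bind. Yap1 and Wwtr1 (the gene of TAZ) summed to 25.7 ± 2.30 RPKM in control and 36.7 ± 3.28 RPKM in dKO, a 1.43-fold difference. The ratio of summed angiomotin to summed Yap1 and Wwtr1 RPKM was 0.464, 0.461 and 0.457 in control and 1.2, 1.22 and 1.31 in dKO. It was thus nearly constant within each group and 2.69-fold higher in dKO (exact two-sided permutation p = 0.10, the smallest possible). This ratio holds the angiomotin sum given above, and how often other ratios reach this p was not computed. Of the coactivators, Wwtr1 rose 1.86-fold (log2 change 0.81 ± 0.12 SE, limma adjusted p = 0.00407), and Yap1 stood at 18.6 ± 1.91 and 23.5 ± 2.64 RPKM (limma adjusted p = 0.12).

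The promoters of the angiomotins and of Ptpn14 are shown because YAP acts through TEAD factors and Amotl2 is a known target. Of the 7 genes, 6 matched the RefSeq promoter table (GRCm38.p6). The 250 bases before each annotated start were searched on both strands for the TEAD hexamer GGAATG, whose reverse complement is CATTCC. It was found in 2 of the 6, Amotl2 and Ptpn14, and in 12.6% of all 32851 promoters in the table. The sequences run 5′ to 3′ on the strand of the gene, with the hexamer in capitals.
Amotl2, chr9:102717554-102717803, plus strand: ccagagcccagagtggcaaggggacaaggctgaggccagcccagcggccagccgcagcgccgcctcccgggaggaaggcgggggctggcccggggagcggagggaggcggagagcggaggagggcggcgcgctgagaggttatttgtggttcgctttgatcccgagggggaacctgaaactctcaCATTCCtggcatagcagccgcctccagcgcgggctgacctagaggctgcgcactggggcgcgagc
Amot, chrX:145487640-145487889, minus strand: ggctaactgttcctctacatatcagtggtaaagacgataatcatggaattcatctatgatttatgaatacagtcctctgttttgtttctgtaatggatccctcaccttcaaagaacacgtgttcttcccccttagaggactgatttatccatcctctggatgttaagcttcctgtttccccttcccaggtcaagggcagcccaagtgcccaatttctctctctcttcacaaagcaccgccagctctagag
Amotl1, chr9:14615001-14615250, minus strand: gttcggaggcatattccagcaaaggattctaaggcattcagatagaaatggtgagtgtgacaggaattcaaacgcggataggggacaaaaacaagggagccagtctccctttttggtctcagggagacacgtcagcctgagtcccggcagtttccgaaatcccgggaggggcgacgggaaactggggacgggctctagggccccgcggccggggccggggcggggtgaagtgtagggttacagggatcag
Ptpn14, chr1:189728018-189728267, plus strand: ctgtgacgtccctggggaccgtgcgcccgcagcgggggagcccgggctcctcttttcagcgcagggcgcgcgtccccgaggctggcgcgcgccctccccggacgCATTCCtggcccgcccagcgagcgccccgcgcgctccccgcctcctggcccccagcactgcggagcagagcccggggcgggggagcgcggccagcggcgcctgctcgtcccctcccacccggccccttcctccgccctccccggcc
The match began 65 bases before the start in Amotl2 and 146 bases before it in Ptpn14. Amot, which rose, held no match in this window, and neither did Amotl1, Frmd6 or Taok1. A match is a description of these letters and not a measured binding site, and the deposited files hold no coordinates (mm9 by the submitters' processing notes).

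Frmd6 and Ptpn14, the FERM protein and the phosphatase, were the least abundant genes of the set. Frmd6 was at 1.32, 1.39 and 1.41 RPKM in the controls, against 2.10, 2.10 and 3.86 RPKM in dKO. All dKO libraries lay above the controls, and dKO replicate 3 was 1.84-fold above the mean of the other two. Its log2 change of 0.60 ± 0.20 (SE) fell short of the threshold (limma adjusted p = 0.0632), and it passed only with sample weights (limma adjusted p = 0.0262, range 0.0262 to 0.314 over 16 alternatives).

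Ptpn14 was at 0.370, 0.441 and 0.484 RPKM in the controls, against 0.825, 0.934 and 2.14 RPKM in dKO. The groups did not overlap, but dKO replicate 3 was 2.43-fold above the mean of the other two, the widest such gap of the set. The ratio of the group means was 3.01, and 2.04 without dKO replicate 3. With a mean under 1 RPKM it was not tested in the main comparison. The exact two-sided permutation p was 0.10, the smallest possible, and without a filter on level the limma adjusted p was 0.105.

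Map4k4, a kinase gene of the MAP4K family, was at 4.37, 4.25 and 4.30 RPKM in the controls, against 8.67, 7.57 and 14.5 RPKM in dKO. The controls were tightly grouped and the lowest dKO library stood 1.73-fold above the highest of them. This was a log2 change of 1.03 ± 0.21 (SE; limma adjusted p = 0.0138). The call was lost without control replicate 1, where the log2 change was 1.04 (limma adjusted p = 0.0524, range 0.000744 to 0.0524 over 16 alternatives), and it held without dKO replicate 3 (log2 change 0.78).

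Taok1, a kinase gene of the TAO family, was at 8.19, 8.71 and 8.53 RPKM in the controls, against 8.97, 9.11 and 10.6 RPKM in dKO. The dKO libraries lay just above the controls, with the lowest 1.03-fold above the highest control. The log2 change was 0.16 (95% confidence interval -0.12 to 0.43; limma adjusted p = 0.359) and turned to -0.10, -0.07 and -0.08 under median-ratio, upper-quartile and quantile scaling in turn. The log2 ratio of Map4k4 to Taok1 within a library, which scaling by 1 factor does not move, went from -0.98 ± 0.07 to 0.04 ± 0.37.

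**Figure D3:**
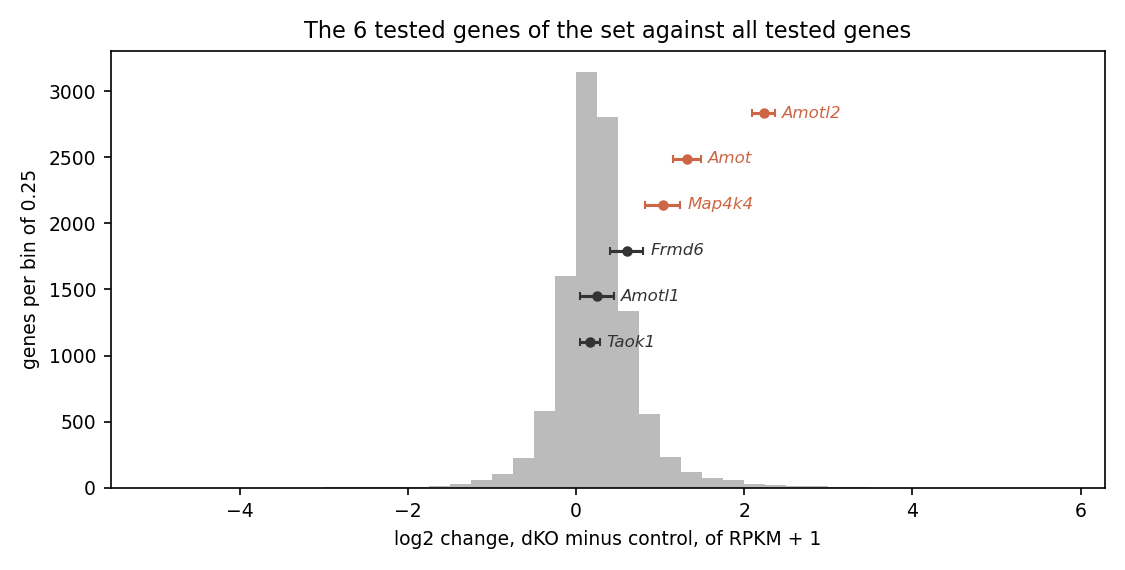
Grey bars count all 11062 tested genes by log2 change in bins of 0.25, and points with SE bars mark the 6 tested genes of the set, in red where called. Amotl2 (2.23), Amot (1.32) and Map4k4 (1.03) lie in the upper tail, while Amotl1 (0.25) and Taok1 (0.16) lie near the median of 0.23.

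Members of the set thus differed among themselves. The log2 ratio of Amotl2 to Amotl1 was 1.23 ± 0.26 in control and 3.31 ± 0.38 in dKO, and that of Amot to Amotl1 went from -0.01 ± 0.08 to 1.28 ± 0.21. The ratio of Amotl2 to Amot went from 1.24 ± 0.23 to 2.03 ± 0.25 on the same scale, and that of Frmd6 to Ptpn14 from 1.68 ± 0.15 to 1.12 ± 0.25. Of the 5 ratios computed, each reached the smallest possible exact two-sided permutation p of 0.10, which stayed 0.10 after Benjamini-Hochberg adjustment over the 5. That adjustment leaves equal p-values as they are, and the ratios among angiomotins share genes. How often other gene pairs reach this p was not computed, so the ratios are given as a description.

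The order of levels changed as well. In control it ran from Taok1 (8.48 ± 0.263 RPKM) through Amotl2, Map4k4, Amotl1, Amot and Frmd6 to Ptpn14 (0.432 ± 0.0575 RPKM), and only Amotl1 and Amot overlapped as neighbours. In dKO Amotl2 came first (33.7 ± 2.77 RPKM), followed by Map4k4 (10.2 ± 3.73 RPKM), Taok1 (9.58 ± 0.927 RPKM) and Amot (8.41 ± 2.23 RPKM), whose neighbouring ranges overlapped. Amotl1, Frmd6 and Ptpn14 came last there and also overlapped as neighbours.

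As RPKM is a share of all reads in a library, scaling was varied. The median log2 change of all tested genes moved from 0.23 to -0.01 with median-ratio scaling. Relative to the median of 0.23, the log2 change was 2.00 for Amotl2, 1.09 for Amot, 0.80 for Map4k4, 0.37 for Frmd6, 0.02 for Amotl1 and -0.08 for Taok1. That scaling called 7.86% of all tested genes as higher and 5.57% as lower, and the calls went from 89.1% increases to 58.6%. Amotl2, Amot and Map4k4 were called higher there and in each of the 10 alternatives that kept every library.

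**Figure D4:**
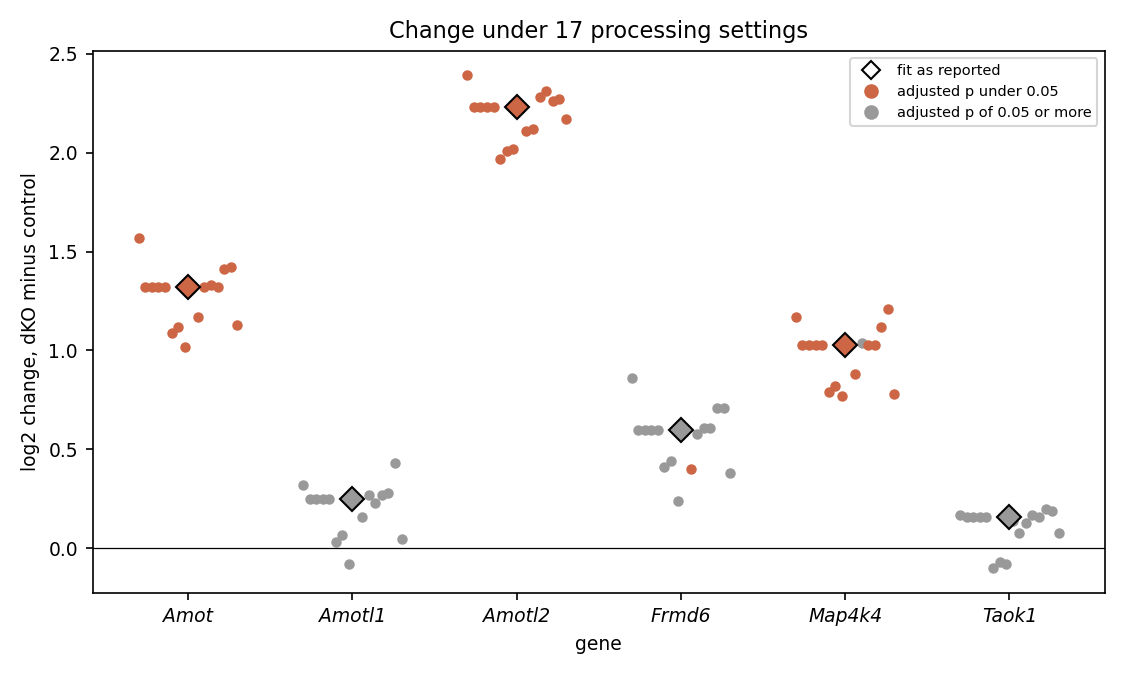
Log2 change of the 6 tested genes in the fit as reported (diamonds) and in 16 alternatives (dots), in red where the limma adjusted p is under 0.05. Amotl2 stays between 1.97 and 2.39 and Amot between 1.02 and 1.57, all called, while Map4k4 has 1 grey dot, Frmd6 1 red dot, and Amotl1 and Taok1 none in red.

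dKO replicate 3 held the highest dKO value of all 7 genes, as it did for 61.8% of tested genes. Its excess over the mean of the other dKO libraries was 1.15-fold for Amotl2 and 1.18-fold for Taok1, near the median of 1.14-fold over tested genes. It was 1.54-fold to 2.43-fold for Amot, Amotl1, Map4k4, Frmd6 and Ptpn14. Without that library 3 of 6 tested genes were called higher, against 9.10% of all tested genes, and 0 lower, against 1.16%. The folds without it were 5.01 for Amotl2, 2.64 for Amot and 1.89 for Map4k4.

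Markers of cell types that could carry these transcripts were read beside them. In bulk tissue, a change in the number of cells of a type and a change in RNA per cell cannot be told apart. Called counts of markers are read against 17.8% of all tested genes called higher and 2.17% lower. These shares were 37.4% and 5.43% with sample weights, 7.86% and 5.57% with median-ratio scaling, and 8.48% and 0.858% without a filter on level. With 1 library left out they were 6.84% to 17.9% and 0.807% to 2.17%. Of 8 cholangiocyte markers, all 6 tested were called higher (4 without control replicate 1, and 5 with each other scaling, with sample weights and without any 1 of control replicates 2 and 3 and dKO replicates 2 and 3). Epcam and Cldn7 averaged 0.359 and 0.623 RPKM in control and 6.77 and 4.71 RPKM in dKO. They thus reached the level needed for the test only through the dKO libraries. Without a filter on level 6 of the 8 markers were called higher. The summed level of the 8 was 28.1 to 80.4 RPKM in control and 341 to 986 RPKM in dKO, highest in dKO replicate 3. Among 8 endothelial markers, cells in which angiomotins were first studied, 0 were called in either direction by limma, also at an unadjusted p under 0.05, and 2 were called higher with sample weights. Their sums were 82.2 to 91.4 and 91.0 to 108 RPKM. Stellate and fibroblast markers summed to 173 to 191 RPKM in control and to 188 to 310 RPKM in dKO, with 1 of 8 called higher (2 without dKO replicate 2, and 3 higher and 1 lower with sample weights). Macrophage markers summed to 135 to 291 and 222 to 314 RPKM, with 1 of 8 called higher (6 without control replicate 2 and with sample weights) and 0 lower (1 without control replicate 3 and with median-ratio scaling). Hepatocyte markers summed to 45600 to 59300 and 39500 to 46100 RPKM, with 2 of 7 called lower (1 with median-ratio scaling, and 0 with quantile normalization, without a filter on level and without any 1 of control replicates 1 and 3 and dKO replicates 1 and 3). Proliferation markers summed to 19.9 to 24.5 and 35.8 to 36.3 RPKM, with 2 of 5 called higher (0 with median-ratio scaling, 5 with sample weights, and 1 without any 1 of control replicates 1 and 3 and dKO replicates 1 and 3), and 6 lymphocyte markers summed to at most 3.01 RPKM, with 0 tested. None of these markers was at 0 in any library, and their part in the changes of the set was not tested. In the main comparison 12.5% of stellate and fibroblast markers and 12.5% of macrophage markers were called higher, beside 17.8% of all tested genes. With median-ratio scaling both shares were again 12.5%, against 7.86% of all tested genes.

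By profile over the 6 libraries, the genes most like Amotl2 among the 6585 averaging 5 RPKM or more were Myh14, a nonmuscle myosin heavy chain gene, Plk2, a polo-like kinase gene, and Ctgf, the connective tissue growth factor gene and a YAP target. Likeness was the root mean square difference between log2(RPKM + 1) profiles centred on the control mean, which was 0.13, 0.14 and 0.17. Myh14 went from 2.85, 4.49 and 4.48 RPKM in control to 18.1, 18.2 and 25.1 RPKM in dKO, with control replicate 1 lowest as for Amotl2. For Amot the nearest were F2r, a thrombin receptor gene, Pkd2, the polycystin 2 gene, and Otud7b, a deubiquitinase gene, at 0.07, 0.09 and 0.09. Those nearest to Map4k4 were Llgl2, a cell polarity gene, Plscr3, a phospholipid scramblase gene, and Ttyh3, a tweety family membrane protein gene, at 0.06, 0.07 and 0.07. Myh14, Plk2, Ctgf, Plscr3 and Ttyh3 stayed under 5 RPKM in every control library, so they entered the search only through their dKO libraries. Pkd2 held 4.72, 4.56 and 5.38 RPKM in control. These are the smallest of many differences over 6 libraries and are given as a description.

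Other genes of the pathway were read from 7 lists holding 88 genes besides the set, of which 87 were in the files and 78 were tested. Of these 27 (34.6%) were called higher, against 17.8% of all tested genes, and 2 (2.56%) lower, against 2.17%, so the share of decreases was near that of all genes. Their median log2 change was 0.42, beside 0.23 over all tested genes. With median-ratio scaling 18 (23.1%) were called higher, against 7.86% of all tested genes, and 7 (8.97%) lower, against 5.57%. The higher calls numbered 15 to 27 with 1 library left out, the fewest without control replicate 1 (19.2%, against 6.84% of all tested genes, with 2.56% and 0.807% lower). With sample weights 40 (51.3%) were called higher, against 37.4% of all tested genes, and 7 (8.97%) lower, against 5.43%. Some genes called higher, namely Ptpn13, Ankrd1 and Tgfb2, reached the level needed for the test only through dKO libraries. Without a filter on level 22 of 86 (25.6%) were called higher, against 8.48% of all tested genes, and 2 (2.33%) lower, against 0.858%. Counts for single lists below are read against 17.8% and 2.17% in the main comparison, and otherwise against the shares of their own setting. These were 37.4% and 5.43% with sample weights, and 8.48% and 0.858% without a filter on level. Median-ratio, upper-quartile and quantile scaling gave 7.86% and 5.57%, 8.53% and 4.86%, and 6.66% and 4.97%. Leaving out control replicates 1, 2 and 3 in turn gave 6.84%, 17.9% and 8.59% higher. For dKO replicates 1, 2 and 3 it was 10.5%, 14.1% and 9.10%. The lower shares there were 0.807% to 2.17%.

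Among 14 tested partners of angiomotins at junctions and in polarity complexes, 8 (57.1%) rose and 1 (7.14%) fell, with a median log2 change of 0.53. Mpdz, a PDZ scaffold gene, rose from 6.61 ± 0.325 to 11.9 ± 1.02 RPKM (log2 change 0.76 ± 0.12 SE, limma adjusted p = 0.00582). Lin7a, a PDZ protein gene, fell from 11.6, 9.34 and 9.03 RPKM to 5.06, 4.38 and 3.77 RPKM (log2 change -1.02 ± 0.15 SE, limma adjusted p = 0.00407). There were 4 increases without control replicate 1, without control replicate 3 and with median-ratio scaling, and 5 without dKO replicate 3. Of 7 tested ubiquitin ligases, tankyrases and deubiquitinases that act on angiomotins, 1 (14.3%) rose, a share near the 17.8% of all tested genes. It was the ligase gene Nedd4l, from 5.96 ± 0.951 to 12.3 ± 1.76 RPKM. There were 2 increases without control replicate 2 and 4 with sample weights. With median-ratio scaling the share was again 14.3%, against 7.86% of all tested genes. A count of 1 thus does not place the list above or below all genes. At an unadjusted limma p under 0.05 the count was 4 higher, and the share of all tested genes at that p was not computed.

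Of 7 tested FERM and phosphatase relatives, 2 (28.6%) rose and 0 fell. Ptpn21, the closest relative of Ptpn14, rose from 4.94 ± 0.711 to 10.8 ± 2.50 RPKM, and Ptpn13, a phosphatase gene with a FERM domain, from 0.479 ± 0.0468 to 2.02 ± 0.876 RPKM. The call of Ptpn13 was lost without control replicate 1 (limma adjusted p = 0.0596). With a control mean under 1 RPKM, Ptpn13 reached the level needed for the test only through its dKO libraries. Without dKO replicate 3 it fell below that level and was not tested, which left 6 tested relatives. There was 1 increase without control replicate 1 or dKO replicate 3 and there were 3 without dKO replicate 2. With median-ratio scaling 2 relatives rose and 2 fell, and with sample weights 4 rose and 1 fell.

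Of 16 tested core kinases and upstream genes, 4 (25%) rose, against 17.8% of all tested genes, and 0 fell. The median log2 change of the 16 was 0.17, below the 0.23 of all tested genes. Wwc1, the gene of the scaffold KIBRA, rose from 14.8 ± 1.66 to 41.3 ± 6.34 RPKM, and its paralog Wwc2 from 3.04 ± 0.299 to 6.60 ± 1.30 RPKM. Map4k3, a relative of Map4k4, rose from 8.09 ± 0.585 to 12.6 ± 2.50 RPKM (limma adjusted p = 0.0329), a call that ended with median-ratio, upper-quartile and quantile scaling, without a filter on level and without any library except dKO replicate 2 (limma adjusted p = 0.144 with median-ratio scaling, range 0.00555 to 0.144 over 16 alternatives). There were 2 increases with those 3 scalings, without a filter and without any 1 of the libraries except dKO replicate 2, where there were 3.

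Of 6 tested coactivator and TEAD genes, 3 (50%) rose, namely Wwtr1, Tead1 (3.28 ± 0.40 to 8.15 ± 2.42 RPKM) and Tead2 (1.04, 1.18 and 1.99 RPKM to 5.40, 2.86 and 12.8 RPKM). The Tead2 fold was 4.99, and 2.95 without dKO replicate 3, and it was called in 7 of 16 alternatives (limma adjusted p of 0.0469 as reported, range 0.00872 to 0.142). The call was lost with median-ratio, upper-quartile and quantile scaling, with the sum without the top 20 genes, without a filter on level, without any 1 control library and without dKO replicate 1. In these settings other than the absence of a filter, the increases in the list numbered 2. Of 18 tested YAP and TAZ targets, 8 (44.4%) rose and 1 (5.56%) fell. Sample weights gave 13 increases and 2 decreases. Leaving out control replicate 1 gave 5 increases, and leaving out dKO replicate 2 gave 2 decreases. Among the increases, Ankrd1 (0.338 RPKM in control, 5.75 RPKM in dKO) and Tgfb2 (0.558 and 2.06 RPKM) reached the level needed for the test only through dKO libraries. Without a filter on level 7 of 19 (36.8%) were called higher, against 8.48% of all tested genes. In that setting 1 (5.26%) was called lower, against 0.858%. Jub, the gene of the LIM protein Ajuba, rose from 2.04 ± 0.873 to 20.4 ± 3.92 RPKM, and Ctgf and Cyr61 rose with log2 changes of 2.23 ± 0.21 and 2.54 ± 0.24 (SE), beside 2.23 for Amotl2. Of 11 tested STRIPAK genes, a phosphatase complex that opposes the MST kinases and binds MAP4K4, 2 (18.2%) rose, a share near the 17.8% of all tested genes. They were Ppp2r1a (17.9 ± 0.830 to 26.8 ± 2.47 RPKM) and Sike1 (2.82 ± 0.652 to 5.36 ± 1.45 RPKM). Both STRIPAK calls were lost without control replicate 1, control replicate 3 or dKO replicate 1 and with median-ratio, upper-quartile and quantile scaling, and that of Sike1 also without dKO replicate 3 and without a filter on level (limma adjusted p of up to 0.104 for Ppp2r1a and 0.158 for Sike1).

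**Figure D5:**
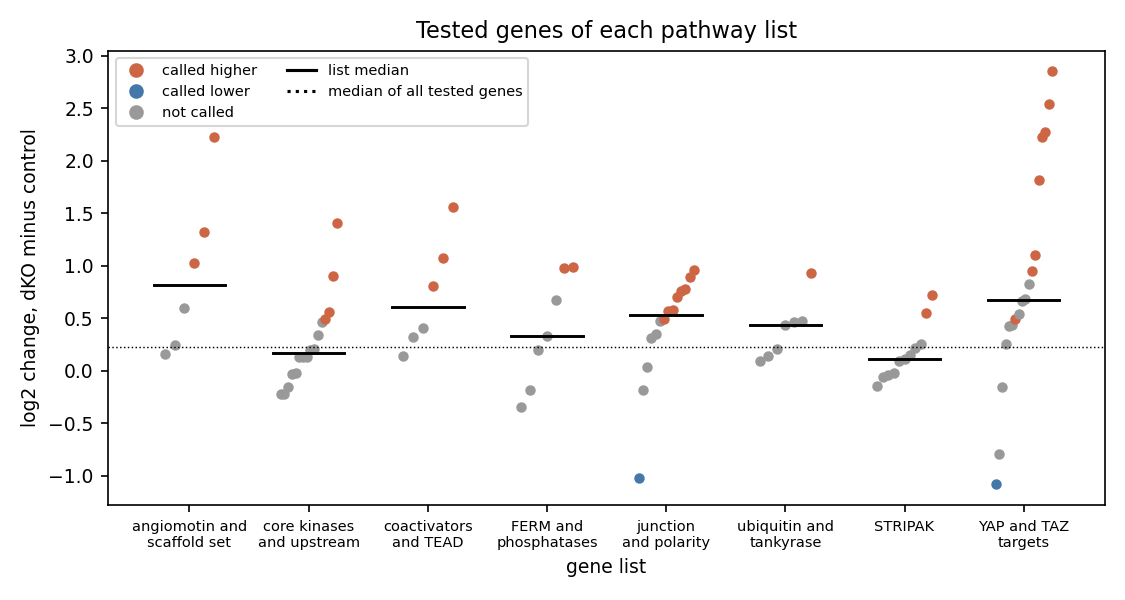
Log2 change of each tested gene in the set and in the 7 lists, in red where called higher and blue where called lower, with a bar at each list median and a dotted line at the median of all tested genes (0.23). The set (median 0.82) has its 3 called genes above 1, and the core kinases (median 0.17) and STRIPAK genes (median 0.11) centre just below the dotted line.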

How the data were processed

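Liver polyadenylated RNA had been sequenced in 3 control and 3 dKO libraries. The authors deposited 1 value per gene symbol and library, without naming the unit in the file headers, and aligned to mm9, per the submitters' processing notes. The aligner, the counting tool and the annotation are not given in the sources used here. The deposited values were read as RPKM because 74.8% to 79.6% of low values (below 6 reads) of symbols with 1 GENCODE M21 transcript lay within 0.15 of a whole read at the best spacing, which also gave the estimated depths. That spacing was chosen on the same values, so the unit was not tested.

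On the log2(RPKM + 1) scale, the genes averaging 1 RPKM or more entered a single fit in limma (version 3.58.1, R version 4.3.3) with a mean-variance trend and robust moderation, tested on simulated data beforehand. Shares and ratios were compared by exact two-sided permutation of 6 libraries (20 splits). Figures used matplotlib 3.10.9. The genes of the set, the lists and the alternatives were chosen with earlier results of these data known. List symbols absent from the files were looked for under RefSeq synonyms. Named genes were all 7 of the set, up to 3 called genes with the smallest p per list, Yap1, Wwtr1, Stk3 and Stk4, and the 3 nearest profiles of each called gene of the set. Sex-linked genes, and Epcam, Cldn7, Ankrd1 and Tgfb2 for their low control levels, were named outside this rule. Of the genes this rule names, 1 is not reported here. Protein sequences were not used here.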

Additional observations from a re-analysis of the deposited data

How the results depend on the processing

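In 16 alternatives Amotl2 and Amot were called in each, Map4k4 in 15, Frmd6 in 1 and Amotl1 and Taok1 in 0. With 1 library left out, 2 to 3 genes of the set were called higher and 0 lower (2 without control replicate 1), while over all genes 763 to 1992 calls were increases and 90 to 241 decreases. Other pathway genes called numbered 15 to 27 higher and 2 to 3 lower, the summed angiomotin RPKM differed by 30.3 to 35.9 and the Amotl2 share by 17.8 to 22.3 percentage points. Over all genes, increases and decreases numbered 866 and 613 with median-ratio scaling, 942 and 536 with upper-quartile scaling, 736 and 550 with quantile normalization, and 4133 and 601 with sample weights, and 145 were called lower without a filter. Other pathway genes called lower were 7, 6, 7 and 7 in those 4 settings, and 17 were called higher with quantile normalization. The log2 change turned to -0.08 for Amotl1 with quantile normalization, and to -0.10, -0.07 and -0.08 for Taok1 in the 3 scalings just named, in that order; the cause of these shifts was not tested. The labels number the replicates in both groups, and same-numbered libraries had deviations from their group means correlated at -0.08, -0.10 and -0.01, so the numbers were not taken as pairs, and no library correlated best with its own number. With the replicate number as a block, 1513 genes were called higher and 202 lower, 3 of the set among the higher. The block took the STRIPAK increases from 2 to 0 (limma adjusted p = 0.0506 for Ppp2r1a and 0.0679 for Sike1), the core kinase and upstream increases from 4 to 3, the hepatocyte marker decreases from 2 to 0, the stellate and fibroblast marker increases from 1 to 3 and the proliferation marker increases from 2 to 1. Ptpn14 had the fewest estimated reads of the set, at about 67 in its lowest library, and an effect of depth on its result was not tested.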
